A study of Triticum turgidum subsp. durum with 32 samples.

Results

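The genes described here are the 5 *FLOWERING-PROMOTING FACTOR-like* (*FPF-like*) genes that the study of wheat phytochrome mutants listed among its flowering genes, namely *FPF-like-A1*, *FPF-like-B1*, *FPF-like-B2*, *FPF-like-A3* and *FPF-like-A4*. They were found by the identifiers of that list in a count table of 150754 transcribed loci, and each identifier matched 1 locus. The study picked them from the same libraries, because they differed between the *phyB*-null mutant and its wild type in both experiments without being called in both experiments of the *phyC*-null mutant. Their levels in the *phyB*-null mutant are therefore given below as a description. The tests concern each experiment of the *phyC*-null mutant, the differences between experiments, the wild-type lines and the balance between related loci. The choice still bears on the *phyC*-null calls and on the differences between experiments. A gene called alike in both *phyC*-null experiments, or in only 1 *phyB*-null experiment, could not be listed.

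All plants were the tetraploid durum wheat variety Kronos, grown for 4 weeks in long days of 16 h light at 20 °C and 8 h dark at 18 °C, and the RNA came from the third leaf, fully extended. The 8 groups of 4 biological replicates were the *phyB*-null mutant and its wild-type sister line, and the *phyC*-null mutant and its wild-type sister line, each grown in experiments 1 and 2. The *phyB*-null mutant combines chemically induced premature stop codons in both genome copies of *PHYB*, A and B, and the *phyC*-null mutant likewise lacks functional *PHYC*. A stop codon need not remove the transcript, so read counts of the mutated genes do not check the labels. Each null mutant is 1 combination of induced mutations, and other induced mutations that a line may still carry cannot be told apart from the loss of the phytochrome. Both *PHYB* experiments used 1 chamber in turn, the *PHYC* experiments used separate chambers with different ballast systems, and the *PHYB* experiments were run separately from the *PHYC* experiments. Library totals ranged from 15961572 to 47695062 uniquely mapped reads counted in loci. Among the descriptions searched, the only chlorophyll a-b binding protein locus averaged between 16.5 and 44.6 normalized counts in the 4 genotypes. Its mean was 3.12-fold higher in *phyB*-null than in wild type in experiment 1, without overlap. The groups overlapped in experiment 2 and in both *PHYC* experiments. Only descriptions of loci reported as changed in a mutant were searched, so this marker was also picked for changing. A marker with so few counts, picked in this way, cannot check leaf identity, which was therefore not tested.

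FLOWERING PROMOTING FACTOR 1 of mustard and Arabidopsis, the founding member of the family, is a small protein expressed in the apical meristem as plants begin to flower, and Arabidopsis plants that overproduce it flower early. In Arabidopsis its effect depends on gibberellin, a hormone that promotes stem elongation and flowering. Phytochromes B and C are receptors for red and far-red light, through which plants sense shade and day length. What individual *FPF-like* genes do in the wheat leaf is not described in the sources used here, and the genes are ordered below by their annotation and position.

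*FPF-like-A1* (Traes_2AS_329CCD131) lies on chromosome 2A at positions 182414529 to 182415214 of the IWGSC draft assembly v2.2, and *FPF-like-B1* (Traes_2BS_EA4D55C79) on chromosome 2B at positions 36323194 to 36323880. Both are described as flowering-promoting factor 1-like protein 5-like. *FPF-like-B2* (Traes_2BL_600226046), described as flowering promoting factor-like 1, lies on chromosome 2B at positions 99660366 to 99661240. *FPF-like-A3* (Traes_6AS_447C71E5B), an FPF1-like protein 3, lies at positions 799 to 1405 of scaffold 4394230 of arm 6AS, and *FPF-like-A4* (Traes_5AL_6FD9AE7EB), an FPF1-like protein 5, at positions 2778 to 3472 of scaffold 2766663 of arm 5AL. Neither scaffold holds another locus. The loci are 607 to 875 bp long, and the annotation gives each as 1 transcribed region without exons, UTRs or an informative strand. A sixth locus, Traes_2BS_949BC55F4, is also described as an FPF1-like protein 5 and lies 4244 bp before *FPF-like-B1*, at positions 36318202 to 36318949 of chromosome 2B. It is not in the study's list and serves below as a comparison. Descriptions were searched only among loci that the study reported as differing in a mutant. The sixth locus was therefore also picked for changing, and *FPF-like* loci without a change would be missed.

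Levels are given as normalized counts, which are raw reads divided by a size factor that corrects for the depth of each library, and replicates are in the order 1 to 4. *FPF-like-A1* reached 6914, 6204, 7916 and 9452 normalized counts in the *phyB*-null libraries of experiment 1, against 47.8, 61.7, 45.4 and 59.9 in wild type. The experiment 2 values were 5232, 3855, 6489 and 6626 normalized counts in *phyB*-null, against 30.3, 52.0, 37.8 and 90.9 in wild type. Every mutant library stood above every wild-type library by far more than the spread within a group. The means were 7621 ± 1408 and 53.7 ± 8.30 in experiment 1 (*phyB*-null and wild type, SD, n = 4 each), which is a 142-fold higher level, and the mutant was 105-fold higher in experiment 2. As bulk leaf tissue was sampled, more expressing cells and more RNA per cell cannot be told apart for this or any other gene.

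*FPF-like-B1* followed the same pattern at a lower level. It had 3987, 3494, 3708 and 5072 normalized counts in *phyB*-null and 19.6, 19.8, 26.2 and 30.6 in wild type in experiment 1, a 169-fold difference of the means. Experiment 2 gave 1795, 593, 2806 and 2865 normalized counts in *phyB*-null and 42.6, 19.9, 59.5 and 18.0 in wild type, a 57.6-fold difference. Replicate 2 of the *phyB*-null mutant stood low in experiment 2, yet remained above all 8 wild-type libraries. That library was also the lowest of its group for *FPF-like-A1*, with 3855 normalized counts, and for Traes_2BS_949BC55F4, with 472, but not for *FPF-like-B2*.

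*FPF-like-B2* had a higher level than both of these genes in wild type and a smaller difference. Its normalized counts were 1344, 1538, 1093 and 1398 in *phyB*-null and 116, 197, 93.4 and 162 in wild type in experiment 1. In experiment 2 they were 1401, 1278, 1151 and 1240.4 in *phyB*-null and 79.5, 137, 57.6 and 116 in wild type. The mutant means were 9.45-fold higher in experiment 1 and 13.01-fold higher in experiment 2, and the mutant libraries were close to each other in both, at 1343 ± 186 and 1268 ± 104 (SD, n = 4 each).

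*FPF-like-A3* was the weakest of the 4 genes that were higher in the mutant. It had 67.4, 117, 73.1 and 83.4 normalized counts in *phyB*-null and 27.0, 9.32, 6.98 and 31.8 in wild type in experiment 1, and the means differed 4.53-fold. Experiment 2 gave 39.8, 36.8, 30.4 and 39.0 in *phyB*-null and 5.68, 3.82, 5.67 and 4.16 in wild type, a 7.55-fold difference. The groups did not overlap within either experiment, but replicate 4 of wild type in experiment 1 stood above the lowest mutant library of experiment 2.

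*FPF-like-A4* went the other way. It had 6.04, 7.83, 5.91 and 3.72 normalized counts in *phyB*-null, against 66.2, 57.1, 38.4 and 96.8 in wild type in experiment 1, with means of 5.88 ± 1.68 in the mutant and 64.6 ± 24.4 in wild type (SD, n = 4 each). In experiment 2 it had 4.98, 7.36, 4.73 and 5.15 normalized counts in *phyB*-null and 103, 81.0, 89.8 and 75.6 in wild type, which made the mutant 15.7-fold lower. The raw reads behind the mutant values were 5 to 13 per library, so counting error is large there.

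**Figure D1:**
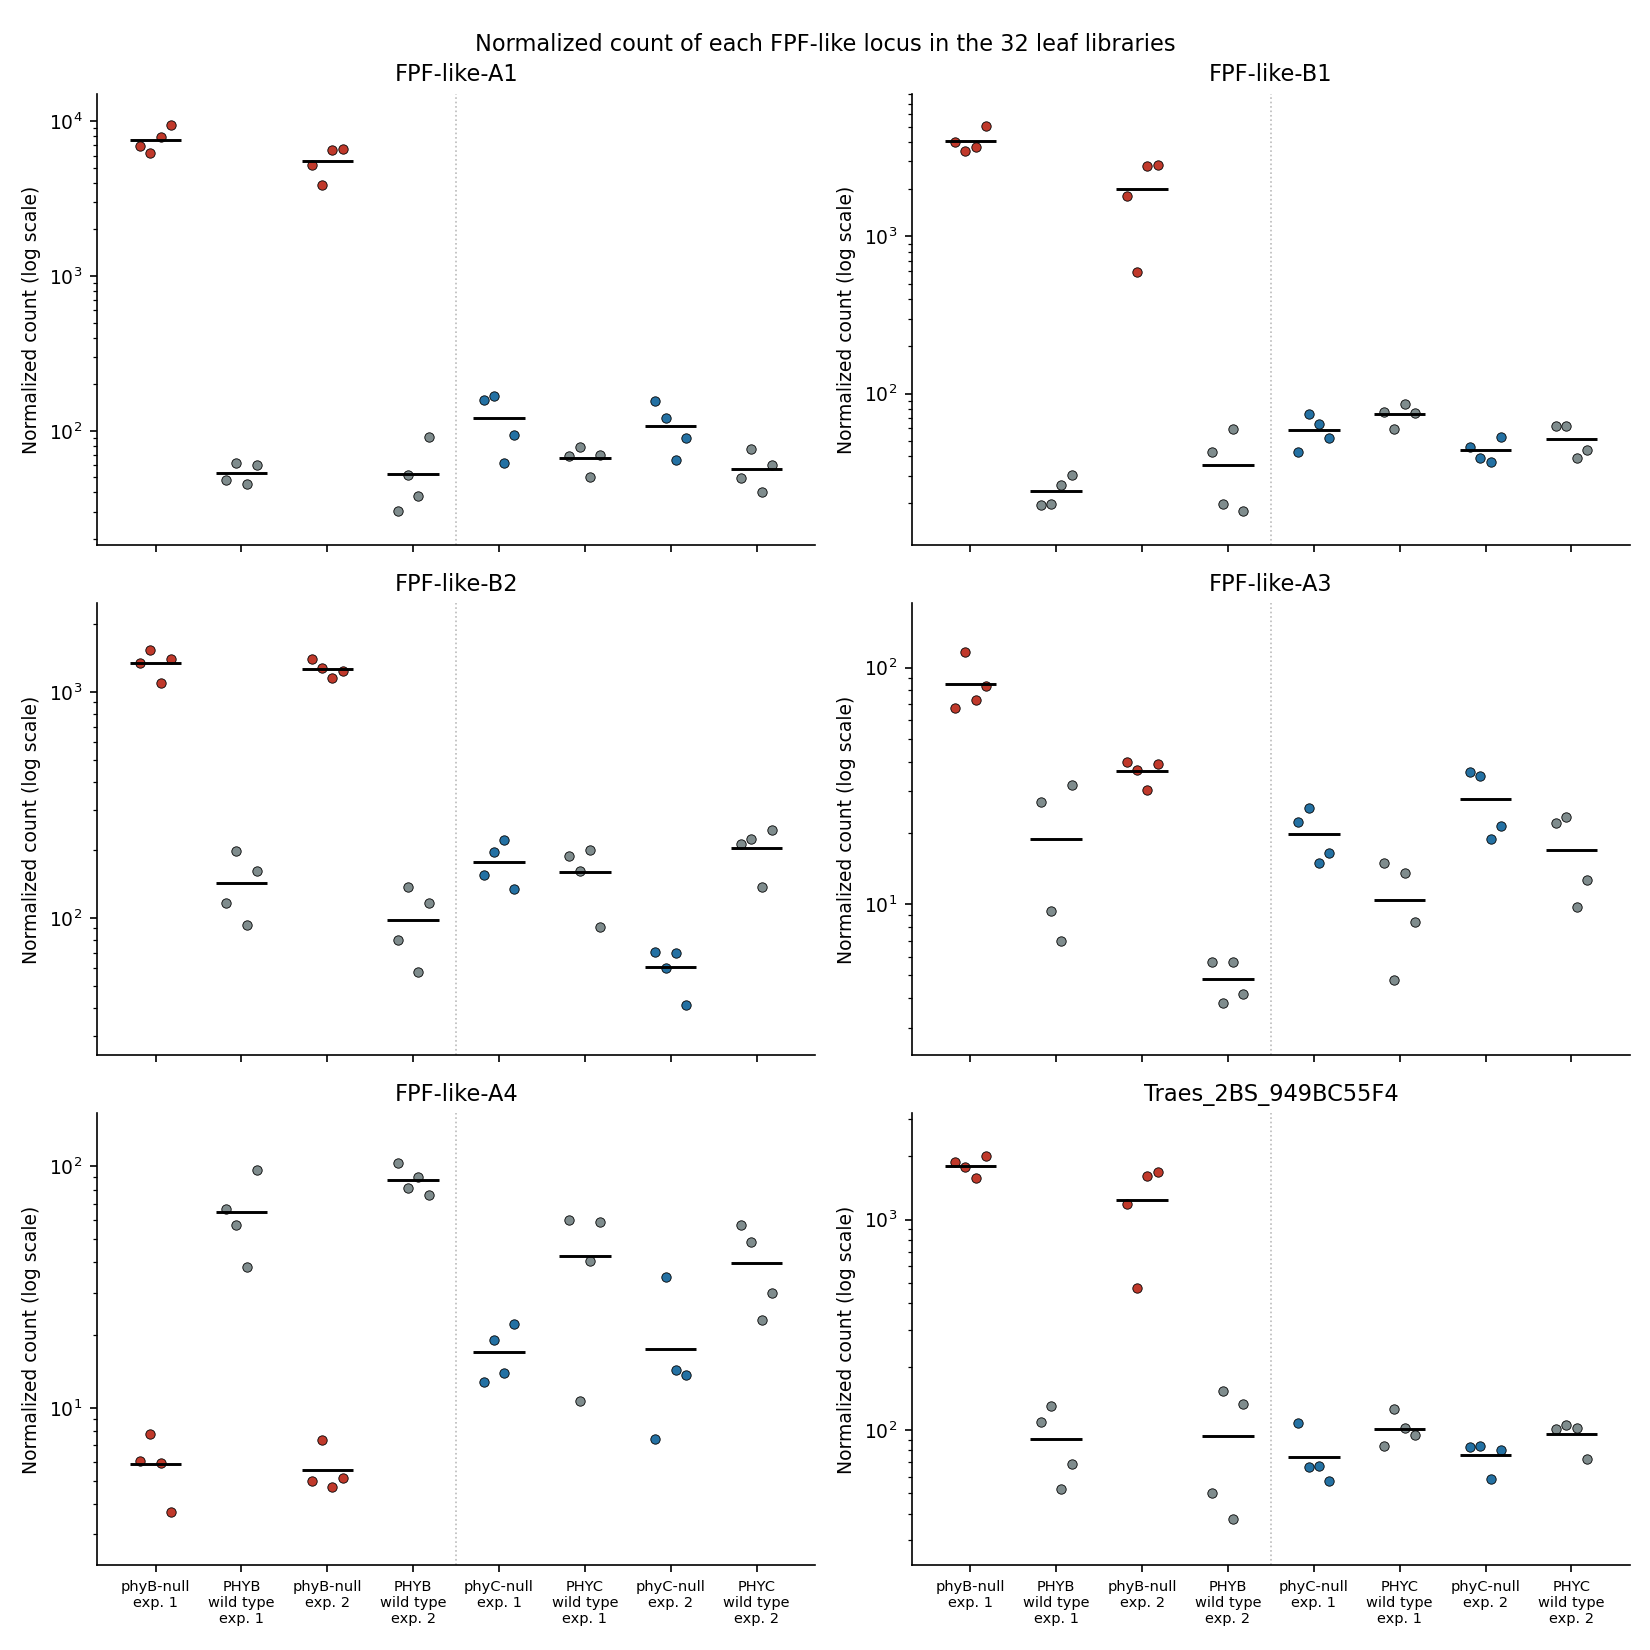
Normalized counts of the 5 *FPF-like* genes and of Traes_2BS_949BC55F4 in the 32 libraries, on log axes. Points are libraries (replicates 1 to 4 from left to right), bars are group means, red is *phyB*-null, blue is *phyC*-null and grey is wild type. Within each experiment, the *phyB*-null libraries stand above their wild type in 5 panels and below it for *FPF-like-A4*, where their means were 5.88 and 5.56 against 64.6 and 87.4.

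On the log2 scale, the *phyB*-null mutant differed from wild type by 7.14 ± 0.20 (SE) for *FPF-like-A1*, 7.38 ± 0.21 for *FPF-like-B1*, 3.23 ± 0.22 for *FPF-like-B2*, 2.21 ± 0.38 for *FPF-like-A3* and -3.45 ± 0.33 for *FPF-like-A4* in experiment 1. In experiment 2 the same differences were 6.69 ± 0.35, 5.88 ± 0.56, 3.69 ± 0.23, 2.91 ± 0.23 and -3.95 ± 0.21. All 5 genes passed an adjusted *P* of 0.01 in both experiments (edgeR's quasi-likelihood test with Benjamini-Hochberg adjustment), as did 9.41% of all tested loci in experiment 1 and 11.6% in experiment 2. Nothing is read from these 2 counts, because the genes were chosen on this comparison.

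Per kilobase of locus, *FPF-like-A1* averaged 11109.8 normalized counts in *phyB*-null of experiment 1 and 78.3 in wild type. That put it at rank 91 of 89934 loci with reads in the mutant, against rank 16067 of 89112 in wild type. *FPF-like-B1* held rank 169 in *phyB*-null and 27414 in wild type in the same experiment, and *FPF-like-B2* held rank 707 in *phyB*-null and 8767 in wild type. *FPF-like-A4* fell to rank 49393 in *phyB*-null, against 14073 in wild type. In wild type of experiment 1, *FPF-like-B2* thus had the highest level per kilobase of the 5 genes and *FPF-like-A3* the lowest, whereas in the mutant *FPF-like-A1* was highest and *FPF-like-A4* lowest. In experiment 2 only the highest gene in wild type was another one. There *FPF-like-A4* had 125.8 normalized counts per kilobase, above *FPF-like-B2* with 111.4.

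**Figure D2:**
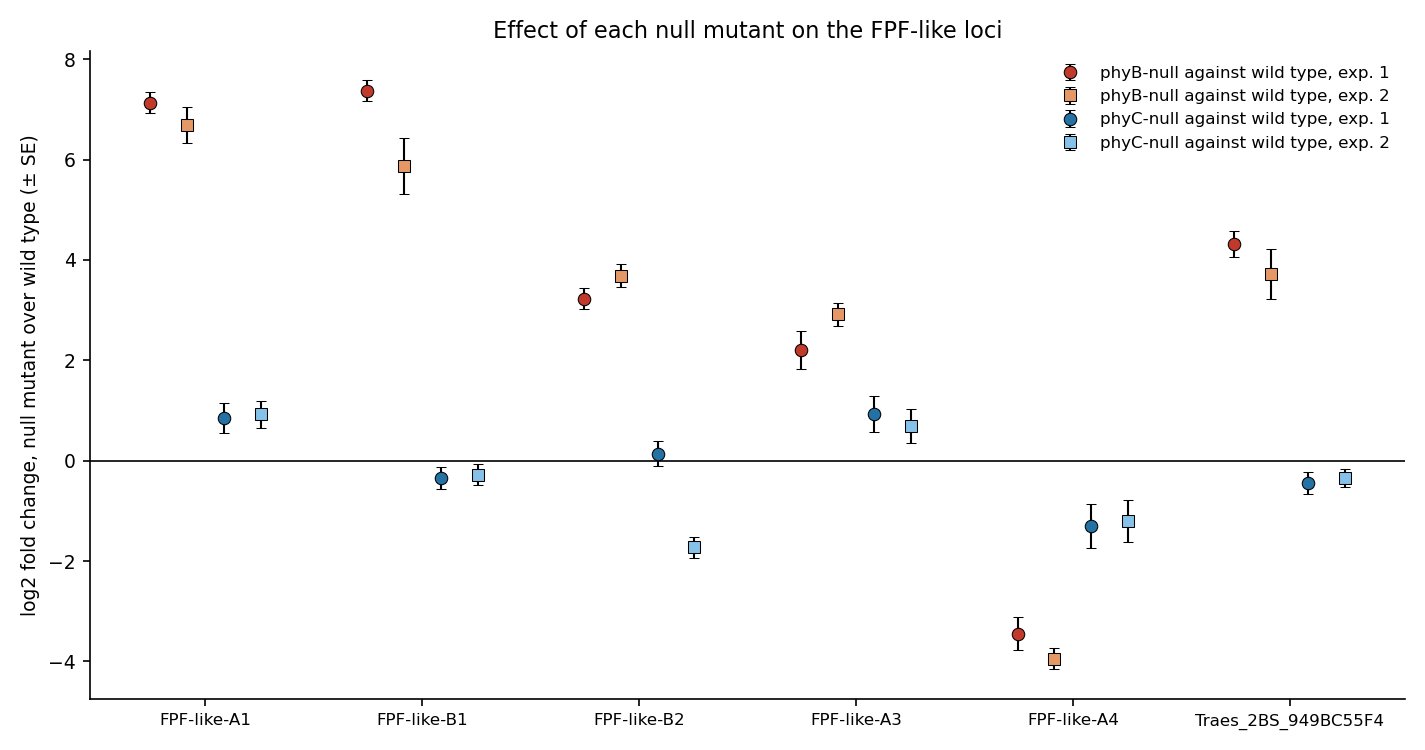
Log2 fold change of each null mutant over its wild type for the 5 *FPF-like* genes and Traes_2BS_949BC55F4, with error bars of 1 SE from edgeR (4 libraries against 4). The *phyB*-null effects run from 7.38 for *FPF-like-B1* to -3.95 for *FPF-like-A4*, while the *phyC*-null effects lie between 0.93 and -1.73.

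The question put to the *phyC*-null mutant is whether loss of the other phytochrome touches the same genes. In experiment 1 none of the 5 genes passed an adjusted *P* of 0.01, where 1.64% of all tested loci did (0 called by DESeq2). An unadjusted *P* under 0.05 was reached by 3 of them, and by 16761 of all 77398 tested loci (edgeR). In experiment 2 only *FPF-like-B2* passed, where 1.04% of loci did. A gene called alike in both experiments could not be in the study's list. A call in 1 experiment could therefore stand only beside the lack of such a call in the other.

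*FPF-like-B2* had 70.9, 59.9, 69.8 and 41.0 normalized counts in *phyC*-null of experiment 2, against 213, 222, 137 and 244 in wild type. It fell to a mean of 60.4 ± 13.8 in the mutant, against 204 ± 46.5 in wild type (SD, n = 4 each), 3.38-fold lower and without overlap (log2 fold change -1.73 ± 0.21, adjusted *P* = 6.81e-04, edgeR). This is the opposite direction to the *phyB*-null effect on the same gene. In experiment 1 *FPF-like-B2* had 155, 196, 221 and 134 normalized counts in *phyC*-null and 189, 161, 200.4 and 90.7 in wild type, and the groups overlapped (log2 fold change 0.14 ± 0.25, adjusted *P* = 0.789). The call in experiment 2 held in all 14 alternative analyses, with adjusted *P* up to 0.00412.

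Whether the *phyC*-null effect on *FPF-like-B2* differed between experiments was tested directly. The effect was lower by 1.87 ± 0.34 on the log2 scale in experiment 2, with an adjusted *P* of 0.0471 (edgeR), which does not pass 0.01. It passed with DESeq2 (adjusted *P* = 3.74e-04) and without a filter on low counts (0.00437), and across the 9 alternatives the adjusted *P* ran up to 0.403. Of all loci 0.0172% passed this interaction test. Within the *phyC*-null mutant alone, *FPF-like-B2* was lower in experiment 2 than in experiment 1 (log2 fold change -1.52 ± 0.25, adjusted *P* = 0.00159, edgeR), where 1.92% of loci passed. That call was lost without replicate 1 (adjusted *P* = 0.0109) or replicate 2 (0.0235). In the *PHYC* wild type the corresponding change was 0.35 ± 0.24 (adjusted *P* = 0.377). Experiment and growth chamber cannot be told apart in these lines. The choice of the genes also favoured those not called alike in both *phyC*-null experiments.

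*FPF-like-A1*, the gene with the highest level in *phyB*-null, had a higher mean in *phyC*-null than in wild type in both experiments without passing. It had 159, 167, 61.7 and 93.7 normalized counts in *phyC*-null and 69.2, 78.6, 50.4 and 69.8 in wild type in experiment 1. The experiment 2 libraries had 156, 121, 64.4 and 89.8 in *phyC*-null and 49.4, 76.3, 40.03 and 59.8 in wild type. The ranges overlapped both times. The log2 fold changes were 0.85 ± 0.30 (adjusted *P* = 0.12) and 0.92 ± 0.28 (adjusted *P* = 0.121), and with both experiments fitted together 0.89 ± 0.22 (adjusted *P* = 0.0134, edgeR), just outside the threshold. The joint call was made by DESeq2 (adjusted *P* = 0.00253), without a filter on low counts (0.00344), and without replicate 3 (0.00807), but the adjusted *P* reached 0.153 when another replicate was left out.

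*FPF-like-A4* had lower means in *phyC*-null than in wild type, with 12.8, 19.1, 13.9 and 22.2 normalized counts in the mutant and 59.7, 10.7, 40.6 and 58.6 in wild type in experiment 1. In experiment 2 it had 7.47, 34.8, 14.3 and 13.7 in *phyC*-null and 57.2, 48.7, 23.0 and 29.9 in wild type. A single library of each experiment made the groups overlap, wild-type replicate 2 in experiment 1 and *phyC*-null replicate 2 in experiment 2. The log2 fold changes were -1.30 ± 0.43 (adjusted *P* = 0.104) and -1.20 ± 0.42 (adjusted *P* = 0.186), and -1.25 ± 0.32 jointly (adjusted *P* = 0.0184, edgeR). Without wild-type replicate 2 the gene passed in experiment 1 (adjusted *P* = 0.0021, edgeR). Leaving out that library also raised the calls over all loci from 1273 to 3726. Its counts over all loci differed from the rest of its group by a chi-square per locus of 48.5 to 50.7, against 11.5 to 17.6 among the rest. Jointly *FPF-like-A4* passed without replicate 2 of every group (0.00111), with DESeq2 (0.00391) and without a filter on low counts (0.00486).

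*FPF-like-A3* had mean normalized counts of 19.8 ± 4.93 in *phyC*-null and 10.4 ± 4.69 in wild type in experiment 1 (SD, n = 4 each), and its groups did not overlap, although the lowest mutant library and the highest wild-type library were almost equal at 14.9 each. In experiment 2 it had 27.8 ± 8.93 in *phyC*-null and 16.9 ± 6.77 in wild type, with overlap. The joint log2 fold change was 0.81 ± 0.25 (adjusted *P* = 0.0465, edgeR). *FPF-like-B1* did not share these directions, since it averaged 58.3 ± 13.9 in *phyC*-null and 74.2 ± 10.9 in wild type in experiment 1 and 43.6 ± 7.26 in *phyC*-null and 51.8 ± 12.2 in wild type in experiment 2. Its joint log2 fold change was -0.31 ± 0.15 (adjusted *P* = 0.223).

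Over both *PHYC* experiments together, 1 of the 5 genes passed, where 4.37% of all loci did. This was *FPF-like-B2* (log2 fold change -0.80 ± 0.17, adjusted *P* = 0.00557, edgeR), whose joint value averages experiments with unlike values, and the call was lost whichever replicate was left out (adjusted *P* from 0.0102 to 0.0575). Side by side, the *phyB*-null effect minus the *phyC*-null effect was 6.03 ± 0.31 for *FPF-like-A1*, 6.95 ± 0.37 for *FPF-like-B1*, 4.26 ± 0.25 for *FPF-like-B2*, 1.75 ± 0.38 for *FPF-like-A3* and -2.44 ± 0.41 for *FPF-like-A4* on the log2 scale. All 5 passed the threshold, as did 5.95% of all loci, although *FPF-like-A3* no longer passed whichever replicate was left out (edgeR, adjusted *P* from 0.0110 to 0.0158). The genes were chosen on this contrast and the differences are a description.

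**Figure D3:**
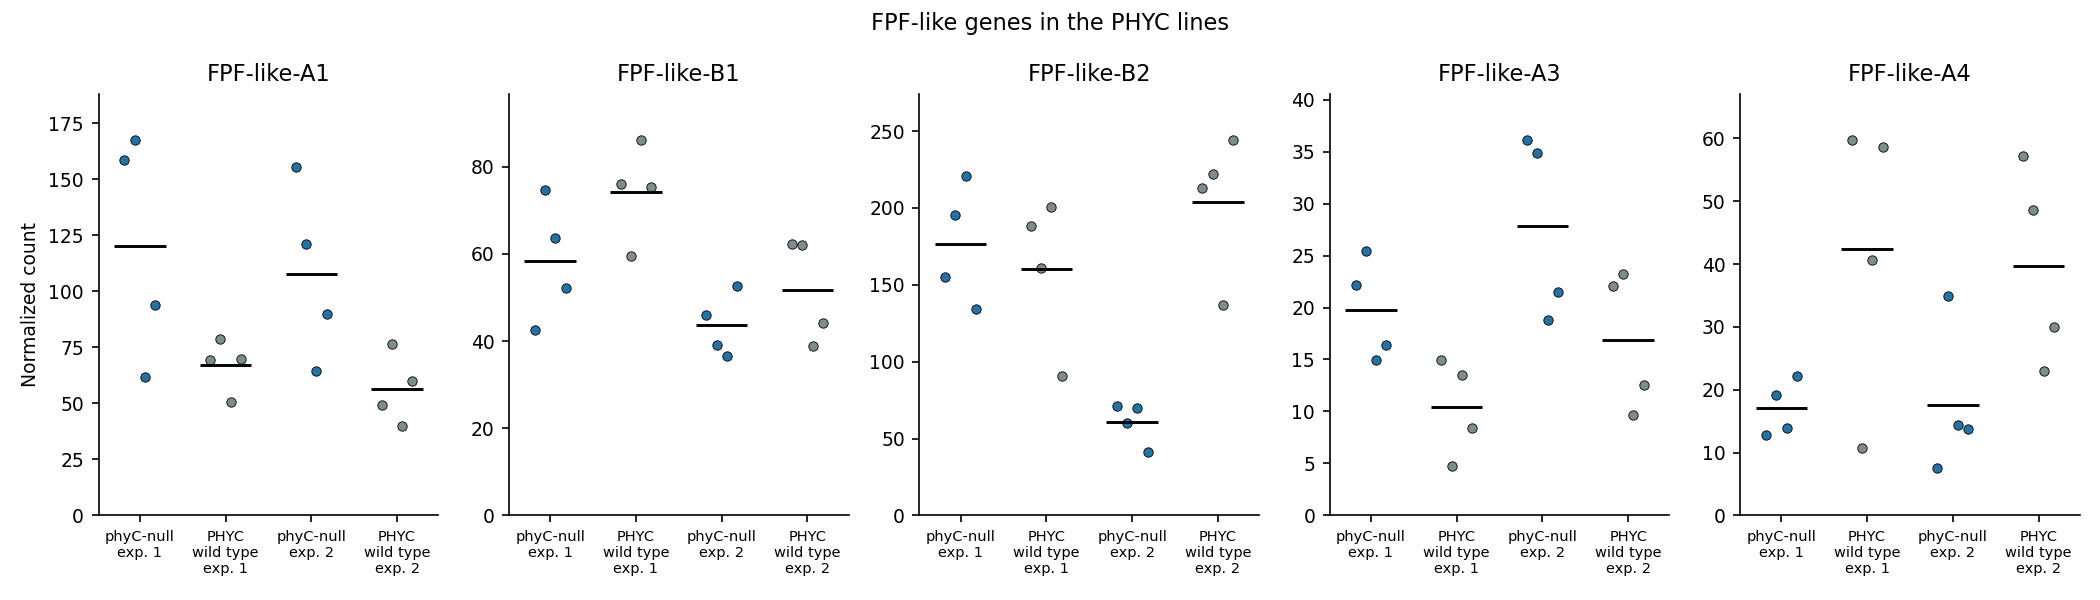
Normalized counts of the 5 *FPF-like* genes in the *PHYC* lines on linear axes that start at 0, with 1 point per library (replicates 1 to 4 from left to right) and bars at the group means, blue for *phyC*-null and grey for wild type. *FPF-like-B2* separates in experiment 2, with 41.0 to 70.9 in *phyC*-null and 137 to 244 in wild type, and the other genes overlap in at least 1 experiment.

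How stable the levels were between experiments was asked next. The study chose genes called in both *PHYB* experiments, which favours effects that are alike there. For the *phyB*-null effect, none of the 5 genes passed the test of a difference between experiments, where 0.00458% of all loci did. An unadjusted *P* under 0.05 was reached by 9166 of 87262 loci and, of the 5 genes, by 1. This was *FPF-like-B1*, whose effect was lower by 1.51 ± 0.61 on the log2 scale in experiment 2 (adjusted *P* = 0.384, edgeR), and DESeq2 called none either. Within the *phyB*-null mutant, no gene passed between experiments with edgeR or DESeq2, where 0.0653% of loci did. Of the 5 genes, 2 had an unadjusted *P* under 0.05, as did 7064 of 87262 loci (edgeR). There the largest changes from experiment 1 to experiment 2 were -1.22 ± 0.29 for *FPF-like-A3* (adjusted *P* = 0.109) and -1.02 ± 0.36 for *FPF-like-B1* (adjusted *P* = 0.396). For *FPF-like-A3* the 4 mutant libraries of experiment 2 lay below the 4 of experiment 1.

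Wild type moved in the same direction for *FPF-like-A3*, by -1.92 ± 0.44 in the *PHYB* line (adjusted *P* = 0.0128, edgeR), and DESeq2 called this change (adjusted *P* = 4.50e-04). The 4 libraries of experiment 2 had 5.68, 3.82, 5.67 and 4.16 normalized counts, all below those of experiment 1. Of all loci 2.56% passed this comparison, and no *FPF-like* gene did. An unadjusted *P* under 0.05 was found for 2 of the 5 genes and for 18821 of 87262 loci (edgeR). In the *PHYC* wild type none passed with edgeR or DESeq2, where 2.03% of loci did. There 1 of the 5 genes had an unadjusted *P* under 0.05, as did 20712 of 81574 loci (edgeR). The log2 changes of the genes ran from -0.50 ± 0.22 for *FPF-like-B1* to 0.73 ± 0.39 for *FPF-like-A3*.

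The *PHYB* and *PHYC* wild-type lines, both sister lines of mutants in Kronos, were not alike for 3 of the genes. *FPF-like-B1* was higher in *PHYC* than in *PHYB* wild type by 1.11 ± 0.27 on the log2 scale (adjusted *P* = 0.00229, edgeR), with 63.02 ± 16.1 normalized counts in *PHYC* and 29.5 ± 14.6 in *PHYB* wild type (SD, n = 8 each). *FPF-like-B2* was higher by 0.62 ± 0.17 (adjusted *P* = 0.00751) and *FPF-like-A4* lower by 0.87 (log2 fold change -0.87 ± 0.25, adjusted *P* = 0.00784). *FPF-like-A1* and *FPF-like-A3* did not pass (adjusted *P* = 0.555 and 0.226). Of all loci 17.9% passed the same test. The lines were grown in separately run experiments, so line, run and growth chamber cannot be told apart. The number of genes called was 0 without replicate 1, 2 without replicate 2 and 1 without replicate 3 or 4.

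In order of their means, both *phyB*-null groups came first for *FPF-like-A1*, *FPF-like-B1*, *FPF-like-B2* and *FPF-like-A3* and last for *FPF-like-A4*. For *FPF-like-A1* the next were *phyC*-null at 120.4 ± 51.1 and 108 ± 39.4, then the wild types from 67.0 down to 52.7, and each of these 6 groups overlapped its neighbour. For *FPF-like-B2* the lowest of the 8 groups was *phyC*-null of experiment 2. For *FPF-like-A4* the order was *PHYB* wild type, *PHYC* wild type, *phyC*-null and *phyB*-null, and only *phyC*-null of experiment 1 and *phyB*-null of experiment 1 were neighbours without overlap.

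*FPF-like-A1* and *FPF-like-B1* carry the same description and lie on the matching chromosome arms 2AS and 2BS, so their balance within each library was compared, which needs no size factor. The log2 ratio of *FPF-like-A1* to *FPF-like-B1* in reads per kilobase was 0.80, 0.83, 1.10 and 0.90 in *phyB*-null of experiment 1 and 1.26, 1.61, 0.79 and 0.96 in wild type. The experiment 2 ratios were 1.54, 2.70, 1.21 and 1.21 in *phyB*-null and -0.48, 1.37, -0.65 and 2.31 in wild type. The ratio was 1.29 ± 0.62 in *phyB*-null and 0.90 ± 1.01 in wild type (SD, n = 8 each), and the difference of 0.39 did not exceed the spread (exact two-sided permutation test, *P* = 0.38, 0.507 after Benjamini-Hochberg adjustment over the 4 ratio comparisons tested). Within experiments the differences were -0.25 and 1.03 (exact permutation *P* = 0.257 each), so even the sign was not shared.

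In the *PHYC* lines the ratio did differ. It was 1.89, 1.16, -0.04 and 0.84 in *phyC*-null of experiment 1 and -0.13, 0.40, -0.76 and -0.11 in wild type. The experiment 2 ratios were 1.74, 1.62, 0.81 and 0.76 in *phyC*-null and -0.33, 0.30, 0.05 and 0.44 in wild type. The mean was 1.10 ± 0.64 in *phyC*-null and -0.02 ± 0.41 in wild type (SD, n = 8 each), a difference of 1.12 (exact two-sided permutation test, *P* = 0.0014, adjusted over 4 comparisons 0.0028). The difference was 1.11 within experiment 1 (exact permutation *P* = 0.0571) and 1.12 within experiment 2 (*P* = 0.0286, the smallest that 4 against 4 libraries allow by the exact test). Leaving out 1 replicate number at a time gave differences of 0.81 to 1.28 (exact permutation *P* from 0.00216 to 0.0195, the highest without replicate 1). In the *PHYB* lines, grown separately, the group means were 1.15 and 0.64 in wild type and 0.91 and 1.67 in *phyB*-null. All of these lay above the *PHYC* wild-type means of -0.15 and 0.11. Whether *phyC*-null or its wild type is the unusual group was not tested. As the reads of both loci were kept only when they mapped to 1 place, how reads divide between such related copies also rests on the letters at which the copies differ, and that was not tested.

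**Figure D4:**
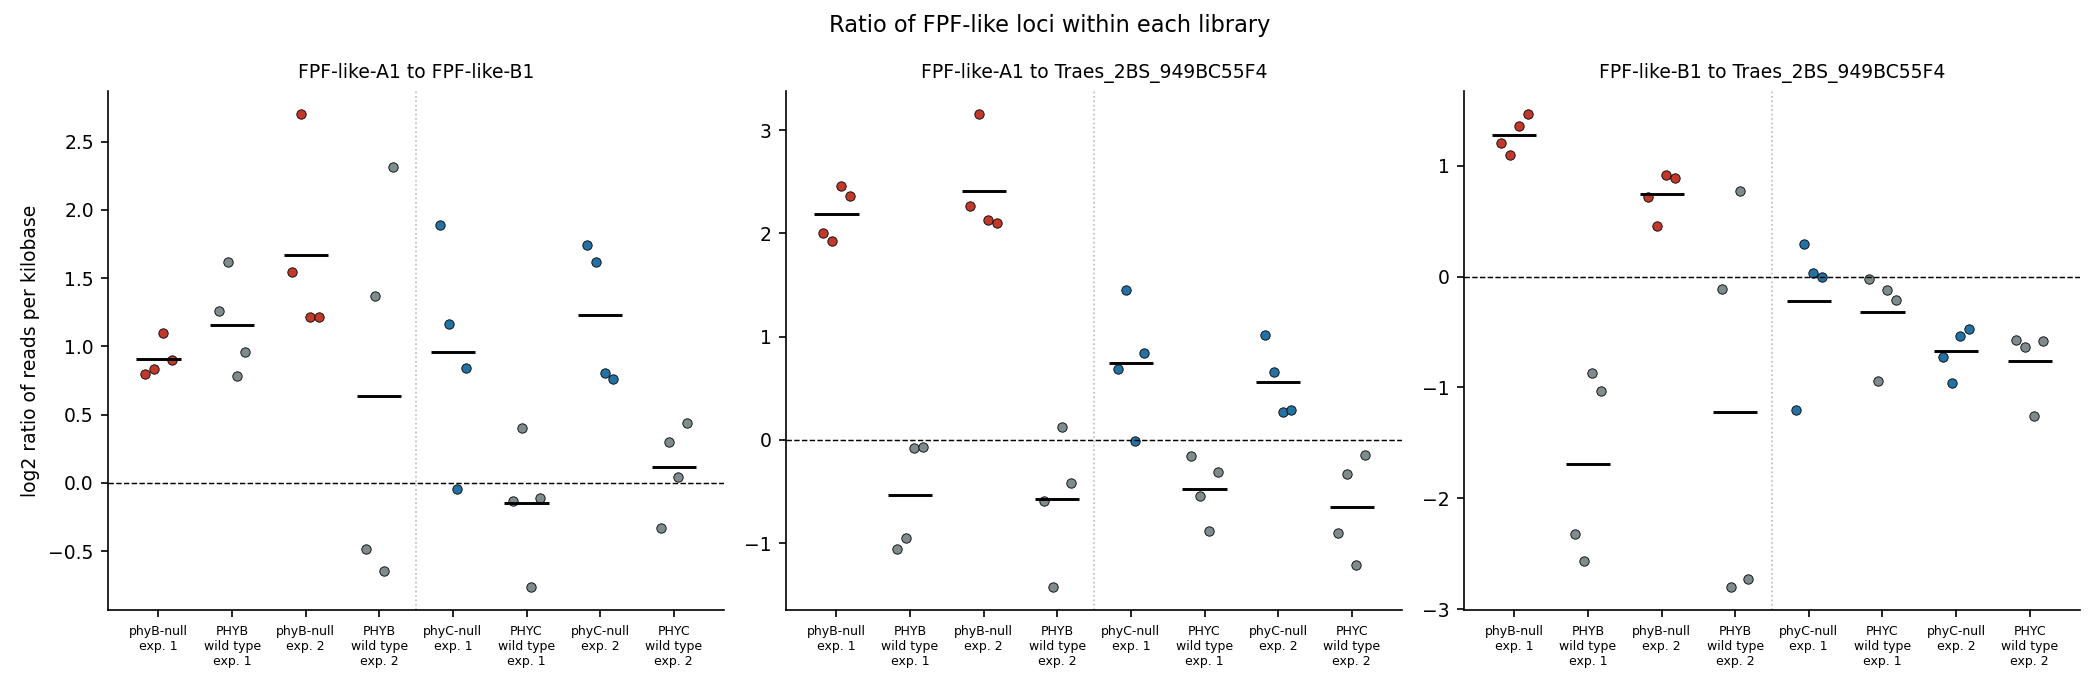
Log2 ratio of reads per kilobase within each library for *FPF-like-A1* to *FPF-like-B1*, *FPF-like-A1* to Traes_2BS_949BC55F4 and *FPF-like-B1* to Traes_2BS_949BC55F4, with 1 point per library (replicates 1 to 4 from left to right), bars at group means and a dashed line at equal levels. In the left panel *phyC*-null averages 1.10 and its wild type -0.02, and in the *PHYB* wild type of experiment 2 the libraries spread from -0.65 to 2.31.

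The sixth locus, Traes_2BS_949BC55F4, was also higher in *phyB*-null, with 1885, 1781, 1575 and 2002 normalized counts in the mutant and 109, 130.5, 52.4 and 68.8 in wild type in experiment 1. Experiment 2 gave 1186, 472, 1622 and 1686 normalized counts in *phyB*-null and 50.2, 153, 37.8 and 132 in wild type. The log2 fold changes were 4.32 ± 0.25 and 3.71 ± 0.50, smaller than those of *FPF-like-A1* and *FPF-like-B1*, and the locus passed in both experiments. In *phyC*-null its log2 fold changes were -0.44 ± 0.22 and -0.34 ± 0.18 and did not pass (adjusted *P* = 0.28 and 0.392, edgeR).

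The ratio of *FPF-like-A1* to this locus, a comparison added after its counts were seen, was 0.65 ± 0.47 in *phyC*-null and -0.56 ± 0.39 in wild type on the log2 scale (SD, n = 8 each). The difference of 1.21 had the smallest *P* that the exact permutation test allows (0.000155, adjusted over 4 comparisons 0.000622), and it was 1.22 within experiment 1 and 1.21 within experiment 2. For *FPF-like-B1* to the same locus the ratio was -0.45 ± 0.52 in *phyC*-null and -0.54 ± 0.42 in wild type, a difference of 0.10 (exact permutation *P* = 0.688). In the *PHYB* lines the ratio to this locus was 2.30 ± 0.39 in *phyB*-null and -0.56 ± 0.55 in wild type for *FPF-like-A1*, and 1.01 ± 0.34 in *phyB*-null and -1.46 ± 1.35 in wild type for *FPF-like-B1*, given without a test because both genes were chosen on that contrast.

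The 4 *PHYB* wild-type libraries of experiment 2 fell into unlike pairs over all loci. The chi-square per locus between their counts was 8.22 for replicates 1 and 3 and 18.8 for replicates 2 and 4, against 55.6 to 88.5 across these pairs. *FPF-like-A1* and Traes_2BS_949BC55F4 were high in replicates 2 and 4, at 52.0 and 90.9 and at 153 and 132 normalized counts, and low in replicates 1 and 3. *FPF-like-B1* was low in replicates 2 and 4, at 19.9 and 18.0, and high in replicates 1 and 3, at 42.6 and 59.5. *FPF-like-B2* followed the first pattern, at 137 and 116 in replicates 2 and 4 and 79.5 and 57.6 in replicates 1 and 3. The part of this split in the ratios of these libraries was not tested. Over all 32 libraries, the correlation of the deviations from group means was 0.56 for *FPF-like-A1* with Traes_2BS_949BC55F4 and 0.01 for *FPF-like-A1* with *FPF-like-B1*, although the levels of *FPF-like-A1* and *FPF-like-B1* correlated at 0.96. The highest such value among the 5 genes was 0.59, for *FPF-like-A3* with *FPF-like-A4*, which lie on arms of different chromosomes. Libraries of a group share their growth and handling, and these correlations are given as a description.

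The surroundings of the genes were compared as well. There were 10 other loci within 100 kb of *FPF-like-A1*, *FPF-like-B1* or *FPF-like-B2*, of which 5 had enough reads for testing in the *PHYB* lines of experiment 1 and 4 in experiment 2. Only Traes_2BS_949BC55F4 passed, in both experiments, where 9.41% and 11.6% of all loci did. It had been found among loci that the study reported as changed. Counting that locus, 3 of the 5 neighbours in experiment 1 and 3 of 4 in experiment 2 had an unadjusted *P* under 0.05 (edgeR). So did 26921 of 81246 and 29372 of 82640 of all loci. The 3 neighbours of *FPF-like-A1* had at most 13 reads in any group of 4 libraries. No neighbour passed in *phyC*-null in either experiment (edgeR), where 1.64% and 1.04% of all loci did. An unadjusted *P* under 0.05 was reached by 1 neighbour in experiment 1 and 0 in experiment 2. Of all loci, 16761 of 77398 and 11358 of 75109 reached it. Traes_2BL_F241CCB3A1, 94882 bp after *FPF-like-B2*, passed between the wild-type lines (log2 fold change 2.12, adjusted *P* = 0.00519, edgeR), at means of at most 5.15 normalized counts. Of all loci 17.9% passed that comparison.

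**Figure D5:**
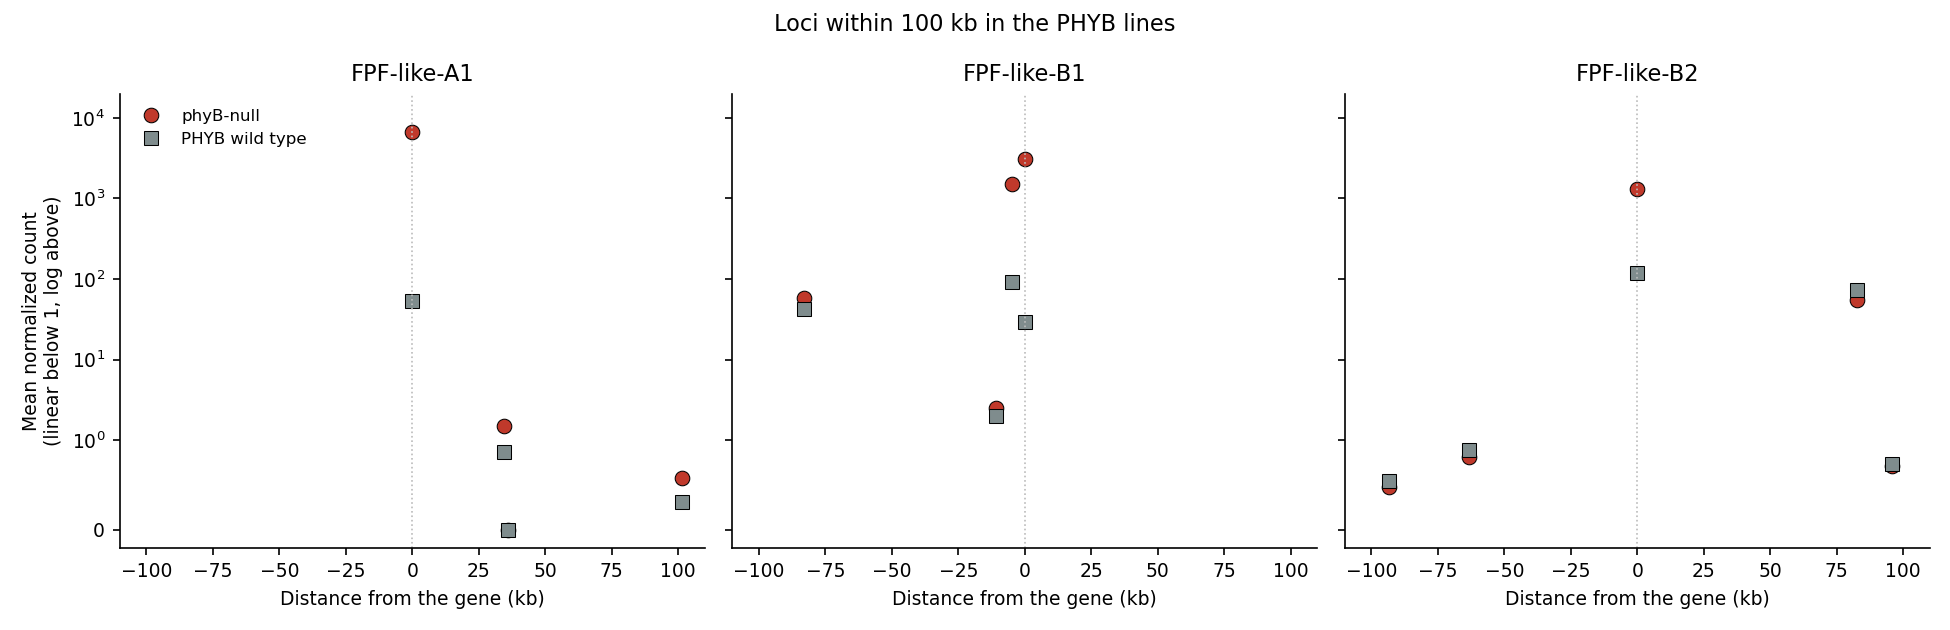
Mean normalized count over both experiments in *phyB*-null (red circles) and *PHYB* wild type (grey squares) of *FPF-like-A1*, *FPF-like-B1*, *FPF-like-B2* and the loci within 100 kb of each, by distance in kb between midpoints. The axis is linear below 1 and logarithmic above. The gene itself stands at 0, and the only neighbour with a wide gap is Traes_2BS_949BC55F4, just before *FPF-like-B1*, at 1526 in *phyB*-null and 91.8 in wild type.

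Loci with the most similar profile over the 32 libraries were sought among 43937 loci with a mean of at least 20 normalized counts, by the Pearson correlation of log2 values. For *FPF-like-A1* they were td-k41_contig_43863 (0.98), TRAES3BF053100340CFD, which the study names *FT-like_chr3-B*, a member of the family of the florigen gene (0.98), and Traes_4BL_AC29E521A (0.97). The nearest profile to *FPF-like-B1* was *FPF-like-A1* itself (0.96). For *FPF-like-B2* they were Traes_7AL_C30BEC9CE (0.94), Traes_2BL_02479C76A, which the study names *ATHB2-B* after an Arabidopsis homeobox gene of the shade response (0.93), and Traes_4BL_AC29E521A (0.93). *FPF-like-A3* was nearest to Traes_6BS_43B59D772 (0.84) and *FPF-like-A4* to Traes_6BL_B19331453 (0.92). A Spearman correlation gave 3 other loci for each of *FPF-like-A1*, *FPF-like-B1* and *FPF-like-B2*. The points share lines and experiments, so these values are a description.

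*FT-like_chr3-B* averaged 257 ± 39.2 normalized counts in *phyB*-null and 1.74 ± 1.43 in *PHYB* wild type, and 5.27 ± 4.02 in *phyC*-null and 2.204 ± 1.69 in *PHYC* wild type (SD, n = 8 each). *ATHB2-B* averaged 281 ± 58.9 in *phyB*-null and 3.58 ± 2.22 in *PHYB* wild type, and 4.92 ± 4.76 in *phyC*-null and 8.02 ± 5.40 in *PHYC* wild type. Both had higher means in *phyB*-null, which their choice largely fixed. They were picked for profiles like those of genes raised in that mutant, and the study listed both on the same contrast. In *phyC*-null, *FT-like_chr3-B* had a 3.83-fold higher mean in experiment 1, without overlap, and a 1.56-fold higher mean in experiment 2, with overlap, and neither difference passed (adjusted *P* = 0.199 and 0.768, edgeR). *ATHB2-B* overlapped in both experiments and did not pass (adjusted *P* = 0.213 and 0.980).

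A set of 18 other flowering genes was drawn from those that the study names. It leaves out the study's *FT-like* genes, most of which, like *FT-like_chr3-B* above, the study reported as higher in *phyB*-null. The counts and medians below therefore hold for these 18 genes only. Of the 18, 3 rose and 14 fell in *phyB*-null in each experiment, with median log2 fold changes of -1.73 and -1.67, where the median of all tested loci was 0.03 and 0.00 and 9.41% and 11.6% of them passed. In *phyC*-null 3 rose and 11 fell in each experiment, with medians of -1.34 and -2.06 (all loci 0.01 in both, with 1.64% and 1.04% passing). *VRN-A1*, the vernalization gene that promotes the transition to flowering, fell in both mutants, with log2 fold changes of -4.42 and -4.03 in *phyB*-null and -3.66 and -2.79 in *phyC*-null. For *FT-B1*, the B genome copy of the florigen gene, they were -10.48 and -8.99 in *phyB*-null and -7.13 and -6.60 in *phyC*-null. *PPD-B1*, the photoperiod gene, averaged 32.1 ± 7.17 normalized counts in *phyB*-null and 3834 ± 798 in *PHYB* wild type, and 94.7 ± 40.1 in *phyC*-null and 2782 ± 473 in *PHYC* wild type (SD, n = 8 each). The identifier of *GATA-A7*, 1 of the 18, matched 2 loci. The locus kept averaged only 3.66 normalized counts in *PHYB* and 4.19 in *PHYC* wild type, far below the levels the study prints. Whether it is the locus that the study measured was not tested. The study chose the 18 genes on the same libraries, so they give no independent evidence of direction.

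Gibberellin genes, given because the family is tied to that hormone in Arabidopsis, are here *GA20ox* genes, which make precursors of active gibberellin, and *GA2ox* genes, which inactivate the hormone. The 7 taken from the study all rose in *phyB*-null in both experiments, with median log2 fold changes of 5.03 and 4.58, where 9.41% and 11.6% of all loci passed and their medians were 0.03 and 0.00. None passed in *phyC*-null in either experiment (5 and 6 of the 7 had enough reads for the test, edgeR). Of all loci, 16761 of 77398 in experiment 1 and 11358 of 75109 in experiment 2 had an unadjusted *P* under 0.05, as did 3 and 1 of these genes. Their medians there were -1.5 and -0.13, where 1.64% and 1.04% of all loci passed. *GA20ox-B2* averaged 2066 ± 583 normalized counts in *phyB*-null and 16.5 ± 5.65 in *PHYB* wild type, and 10.2 ± 2.71 in *phyC*-null and 16.4 ± 6.72 in *PHYC* wild type (SD, n = 8 each). The study chose this list on the *PHYB* contrast as well, and the values are set beside those of the *FPF-like* genes without a test of their relation.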

How the data were processed

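RNA from 32 leaf samples was sequenced as 50-bp single reads. The authors trimmed the reads, used GSNAP to map them to the IWGSC draft assembly v2.2 of Chinese Spring wheat (chromosome arms of genomes A and B), and deposited raw counts per locus from htseq-count (union mode, uniquely mapped reads only), with no normalization. Reads that fit several copies equally well were thus dropped, which can lower the counts of related loci.

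Here, a locus was tested where 2 or more of the fitted libraries held 3 or more reads, with edgeR 4.0.16 (R 4.3.3), quasi-likelihood test, relative log expression size factors, Benjamini-Hochberg adjustment over all loci tested and a threshold of 0.01. Each mutant was fitted with its wild type within an experiment (8 libraries), the interactions and comparisons between experiments over the 16 libraries of a line, and the comparisons across lines over all 32. Normalized counts are reads divided by the size factor over 32 libraries. Ratios within a library used reads per kilobase with 0.5 added and exact two-sided permutation tests. Levels and profiles used log2(normalized count + 1). DESeq2 1.42.0, other size factors, filters and thresholds, a replicate block and leaving out replicates were the alternatives. The edgeR steps were tested on simulated data.

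Loci named are the 5 genes, other loci described as flowering promoting factors, loci within 100 kb where called, the 3 loci with the most similar profile to each gene, and flowering and gibberellin genes of the study. The descriptions searched were those of loci that the study reported as changed. The members and lists were chosen with earlier results of these data known. Samples were grouped by their labels, which call replicates biological, and all columns were mapped. Replicates differed by more than sampling noise in each of 48 pairs (chi-square per locus from 1.514 to 88.5). The lowest value was that of replicates 3 and 4 of *phyB*-null in experiment 2, and the next lowest pair stood at 5.323. Whether these replicates 3 and 4 are as independent as the others was not tested.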

Additional observations from a re-analysis of the deposited data

Results flagged for a closer look

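In groups of 4 libraries, the gap of the highest or lowest library to its nearest neighbour, as a share of the range, was compared with Dixon's critical value. Of 72 groups of levels and ratios, 5 exceeded it, and chance alone gives about 1 in 20. *FPF-like-A4* stood high in *phyB*-null replicate 2 of experiment 2 (gap share 0.841, at 7.36 normalized counts). Traes_2BS_949BC55F4 stood low in *phyC*-null replicate 3 (0.86, at 58.2) and in *PHYC* wild-type replicate 4 (0.885, at 72.4), both of experiment 2. The log2 ratio of *FPF-like-A1* to Traes_2BS_949BC55F4 was high in *phyB*-null replicate 2 of experiment 2 (0.843, at 3.15), and that of *FPF-like-B1* to Traes_2BS_949BC55F4 was low in *PHYC* wild-type replicate 3 of experiment 2 (0.909, at -1.26).

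The effects of the 2 mutants differed for every *FPF-like* gene and for Traes_2BS_949BC55F4 by the edgeR test of the difference, although *FPF-like-A3* did not pass whichever replicate was left out (adjusted *P* up to 0.0158). On the log2 scale, the *phyB*-null effect minus the *phyC*-null effect was 6.03 for *FPF-like-A1*, 6.95 for *FPF-like-B1*, 4.26 for *FPF-like-B2*, 1.75 for *FPF-like-A3*, -2.44 for *FPF-like-A4* and 4.41 for Traes_2BS_949BC55F4. The 5 genes were chosen by the study for this pattern.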

How the results depend on the processing

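All 5 genes were called in *phyB*-null in both experiments under every alternative, and *FPF-like-B2* in *phyC*-null of experiment 2 likewise. Elsewhere the number of *FPF-like* genes called moved. For *phyC*-null of experiment 1 it ranged from 0 to 1 when single replicates were left out. For both *PHYC* experiments together, 1 gene was called, against 3 with DESeq2, 3 without a filter on low counts, 2 with the replicate block, 4 at a threshold of 0.05 and 0 to 1 when replicates were left out. For the *PHYC* interaction, and for *PHYB* wild type between experiments, it was 0, against 1 with DESeq2, without a filter and at 0.05. For *phyC*-null between experiments it was 1, and 0 to 1 when replicates were left out. Between the wild-type lines it was 3, and 0 to 2 when replicates were left out. For the difference between the effects of the mutants it was 5, and 4 whichever replicate was left out. The cause was not tested.

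Directions reversed only for uncalled values, each when 1 replicate was left out, and the log2 ranges over the left-out replicates were as follows. For *FPF-like-A1*, the change in *PHYB* wild type between experiments ran from -0.36 to 0.12 and the *PHYC* interaction from -0.085 to 0.31. For *FPF-like-A3* the *PHYC* interaction ran from -0.53 to 0.23. For *FPF-like-A4*, the change between experiments ran from -0.19 to 0.020 in *phyB*-null, from -0.46 to 0.26 in *phyC*-null and from -0.51 to 0.24 in *PHYC* wild type, and the *PHYC* interaction from -0.046 to 0.24. For *FPF-like-B1* the *PHYC* interaction ran from -0.14 to 0.45. For *FPF-like-B2* the *phyC*-null effect of experiment 1 ran from -0.051 to 0.27.

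Replicate numbers did not pair the samples: of 16 same-numbered pairs, 3 had correlated deviations over 0.1 (range -0.39 to 0.15) and 2 correlated best with their own number. With the replicate block 5 genes were called in *phyB*-null in each experiment, 0 in *phyC*-null of experiment 1, 1 in experiment 2 and 2 jointly, the added one being *FPF-like-A1* (adjusted *P* = 0.00158, edgeR). The ratio of *FPF-like-A1* to *FPF-like-B1* in the *PHYC* lines had an exact *P* of 0.00781 with the block, the smallest it allows.

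Over all loci, calls ranged from 3422 to 16156 in *phyB*-null of experiment 1 (7648 as reported) and from 742 to 4448 in *phyC*-null of experiment 1 (1273 as reported) across settings other than left-out replicates. Depth limits *FPF-like-A4* in *phyB*-null and *FPF-like-A3* in wild type, where some libraries held few reads.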
